A study of Mus musculus with 8 samples.

Results

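Sox1, Sox2, Sox3, Sox21, Sox8, Sox9, Sox5, Sox6, Sox4 and Sox11 are 10 genes of the Sox family of DNA-binding proteins that are used in neural progenitors, glia and young neurons. They were chosen by symbol, as the SoxB, SoxE, SoxD and SoxC genes of these cells, and all 10 were among the 14954 genes with a value. RNA had been sequenced from 8 cultures of progenitors made from A2lox.Cre Bcl6 mouse embryonic stem cells, a line that carries a tetracycline-inducible Bcl6 transgene and was grown on irradiated mouse embryonic fibroblasts before differentiation. In the Bcl6-induced group, 4 cultures were given 1 µg/ml doxycycline for 24 h at day 12, and in the control group 4 cultures were given DMSO. All 8 shared the transgene, a defined medium and 400 ng/ml cyclopamine, which blocks hedgehog signalling and which the protocol adds at day 2 and takes away after 10 days. No culture had doxycycline without the transgene, so the effects of Bcl6 and of doxycycline cannot be told apart. The labels number the differentiations 1 to 4 in each group and say no more of how separate the cultures were, and the p-values hold only for the spread among these 8 libraries, which may be technical.

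Sox proteins bind DNA through a shared HMG box and act together with partner factors. The SoxB1 proteins Sox1, Sox2 and Sox3 keep neural progenitors undifferentiated, and the SoxB2 protein Sox21 counters them. SoxE proteins act in neural stem cells and in the making of glia, SoxD proteins lack a transactivation domain of their own and modulate other Sox proteins, and SoxC proteins activate genes of newborn neurons. Bcl6 is a transcriptional repressor that promotes neuron production in the developing cortex, and the comparison asks what its induction does to gene expression in progenitors.

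The start of the HMG box shows how near the 10 genes are to each other and how the subgroups part. The coding sequences of the first 60 bases, from the GENCODE M21 transcripts on GRCm38 (mm10), follow with capitals for the 26 bases that were the same in all 10 genes. The stretch was located by the codons of its conserved start, so most of those 26 bases were fixed by the search. They also count in the identities of pairs given below. Each lies within 1 exon.
Sox1 (SoxB, chr8:12396517-12396576, plus strand): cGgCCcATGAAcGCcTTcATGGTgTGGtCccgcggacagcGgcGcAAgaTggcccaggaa
Sox2 (SoxB, chr3:34650548-34650607, plus strand): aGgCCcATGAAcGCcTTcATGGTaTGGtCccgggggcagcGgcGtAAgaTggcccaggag
Sox3 (SoxB, chrX:60892936-60892995, minus strand): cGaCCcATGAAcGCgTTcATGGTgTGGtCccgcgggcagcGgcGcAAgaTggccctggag
Sox21 (SoxB, chr14:118235549-118235608, minus strand): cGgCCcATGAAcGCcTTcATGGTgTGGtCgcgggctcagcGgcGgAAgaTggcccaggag
Sox8 (SoxE, chr17:25570163-25570222, minus strand): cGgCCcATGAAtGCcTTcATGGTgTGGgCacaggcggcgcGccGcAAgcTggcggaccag
Sox9 (SoxE, chr11:112782903-112782962, plus strand): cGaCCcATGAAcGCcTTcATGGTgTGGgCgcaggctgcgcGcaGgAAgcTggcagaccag
Sox5 (SoxD, chr6:143841214-143841273, minus strand): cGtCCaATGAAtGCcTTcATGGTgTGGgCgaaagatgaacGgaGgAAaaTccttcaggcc
Sox6 (SoxD, chr7:115489703-115489762, minus strand): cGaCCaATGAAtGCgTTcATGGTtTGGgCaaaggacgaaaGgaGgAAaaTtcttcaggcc
Sox4 (SoxC, chr13:28952782-28952841, minus strand): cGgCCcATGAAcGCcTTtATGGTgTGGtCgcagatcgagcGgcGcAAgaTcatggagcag
Sox11 (SoxC, chr12:27342199-27342258, minus strand): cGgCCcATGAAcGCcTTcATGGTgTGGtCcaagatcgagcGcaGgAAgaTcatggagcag
Within a subgroup, the 9 pairs of genes were identical at 86.7% to 91.7% of these bases, with a median of 90.0%. The 36 pairs from different subgroups were identical at 60% to 80%, with a median of 70.0%. Over the whole of the longest transcripts, the longest exact run that any pair shared was 48 bases, between Sox4 and Sox11, followed by 45 bases between Sox1 and Sox3.

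Bcl6 (ENSMUSG00000022508, chr16:23965052-23988852, minus strand), whose value holds transgene and endogenous reads together, averaged 391.5 ± 47.1 CPM in induced cultures and 6.49 ± 0.491 CPM in controls (SD, n = 4 each), where CPM is the usual per-library scaling of the deposited value by its library's total. Its lowest induced library had 324.6 CPM and its highest control 7.12 CPM. Read totals recovered from the steps of the values were 10.33 M to 15.02 M in induced libraries and 9.42 M to 9.74 M in controls, so every induced library was deeper than every control. For the marker counts that follow, 4.55% of all genes were called higher and 2.26% lower. Emx1, a marker of the cortical primordium, had no row. The 4 measured markers of that tissue summed to 186.9 to 198.3 CPM in induced cultures against 231.6 to 262.1 CPM in controls, with Lhx2 called higher, Otx2 lower and the other two not called. The 8 markers of radial glia, the progenitors of the cortex, had a summed level of 851.0 to 1223.6 CPM in induced cultures against 1370.2 to 1676.3 CPM in controls, with 5 of 8 called lower (2 without control 2 or 4 or induced library 1 or 2, and 3 without control 3). The 8 neuron markers summed to 1307.6 to 1558.7 CPM in induced cultures against 795.9 to 972.4 CPM in controls, with 6 of 8 called higher. In sum, radial glia markers were thus lower and neuron markers higher in every induced library than in every control. Pluripotency markers summed to 1868.6 to 2220.0 CPM in induced cultures and 2003.5 to 2247.2 CPM in controls, with 3 of 8 higher (1 without control 2 or induced library 1 or 2) and 1 lower. The higher ones were Nanog, Esrrb and Zfp42, at log2 fold changes of 0.44, 0.62 and 0.49, and the lower one was Tdgf1, at -0.43. The summed levels overlapped between groups for pluripotency and feeder markers and not for the other lists. Neural crest markers summed to 172.9 to 186.7 CPM in induced cultures against 106.2 to 128.0 CPM in controls, with 4 of 6 measured higher (2 without control 2 or induced library 1 or 2) and Sox10 with no row. Mesoderm and endoderm markers summed to 123.6 to 135.0 CPM in induced cultures against 75.5 to 97.3 CPM in controls, with 1 of 6 measured higher (T) and Mixl1 and Mesp1 with no row. Astrocyte and oligodendrocyte markers summed to 110.6 to 127.6 CPM in induced cultures against 79.9 to 104.6 CPM in controls, with 1 of 4 measured higher and Gfap, Aqp4, S100b and Olig1 with no row. Feeder fibroblast markers summed to 555.3 to 672.5 CPM in induced cultures and 511.7 to 659.7 CPM in controls, with none of 7 called.

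After Bcl6 induction, Sox3, Sox9, Sox8 and Sox1 were lower in induced cultures than in controls, Sox4 was slightly higher, and the other 5, which include Sox2 and Sox11, did not pass the test. Of the 10 genes, 50.0% were called at an adjusted p under 0.05 (limma, Benjamini-Hochberg over all genes), against 6.81% of all 14954 genes. The 10 genes were chosen with earlier results of these data known, so this share and those below are descriptions. Lower calls made up 2.26% and higher calls 4.55% of all genes. The median log2 fold change, induced minus control, was -0.62 over the 10 genes and 0.03 over all genes, and 9 of the 10 lay below 0. The SoxE genes had the lowest median of the 4 subgroups and the SoxC genes the highest. By subgroup the median was -0.79 for the 4 SoxB genes. Over only 2 genes each, it was -1.27 for SoxE, -0.34 for SoxD and 0.16 for SoxC. The groups did not overlap in 5 of the 10 genes, against 16.9% of all genes. In 4 of the 10 every induced library was the lower, against 6.17% of all genes, and in 1 the higher, against 10.7%. These counts depended on single libraries and on the scaling. The number of Sox genes called lower was 1 without control 2, 1 without induced library 1 and 2 without induced library 2, and the number called higher was 0 under 3 other scalings of the libraries (median-of-ratios, upper quartile and TMM). Over all genes the same test called 1019, and this count fell to 359 without control 2, 308 without induced library 1, 350 without induced library 2 and 649 without induced library 3, and was 1697 without control 1. The fewest calls were left without control 2 or induced library 1 or 2. The marker lists and the read depths above differed between the same libraries, and their part in the result was not tested. In bulk RNA, fewer cells of a type and less RNA per cell cannot be told apart.

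**Figure D1:**
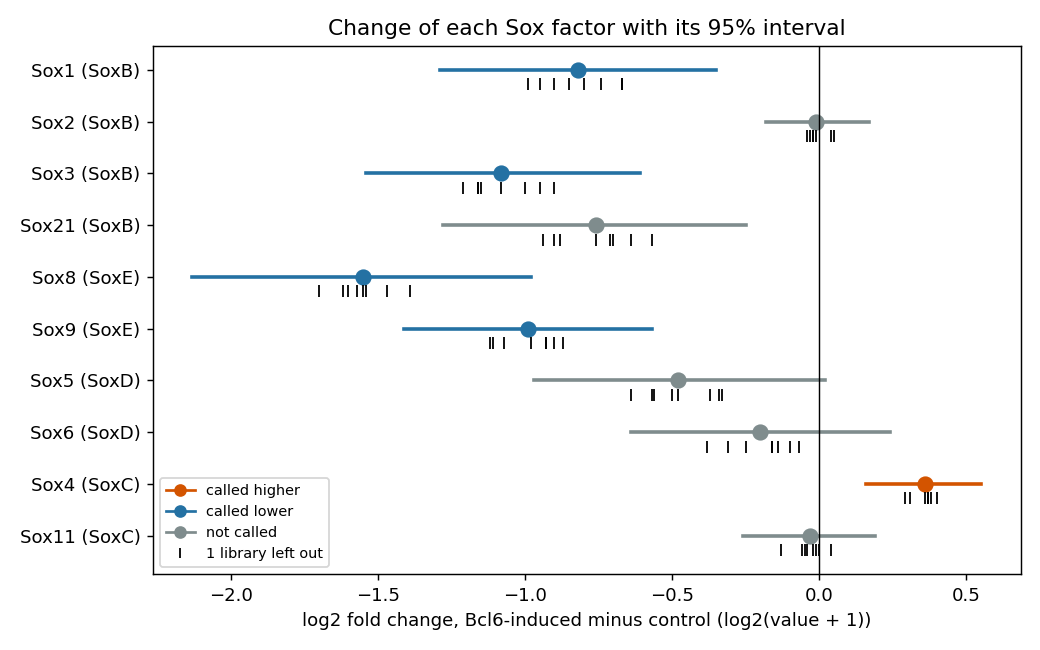
Log2 fold change of each Sox gene, Bcl6-induced minus control, on the log2(value + 1) scale, with the limma 95% interval as a bar and the values with 1 library left out as ticks below it. Colours mark genes called higher, called lower or not called; the intervals of Sox1, Sox3, Sox8 and Sox9 lie below 0, as does that of Sox21, which was not called after adjustment.

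Among the SoxB genes, Sox3 and Sox1 fell and Sox2 and Sox21 did not pass the test. Whether the changes of these genes differ from each other was not tested. Sox3 (ENSMUSG00000045179, chrX:60891366-60893430, minus strand, a gene of 1 exon) had 12.1, 10.9, 18.6 and 16.5 CPM in induced libraries 1 to 4, compared with 43.4, 29.8, 24.9 and 25.0 CPM in control libraries 1 to 4. Every induced library was below every control, and control 1 stood above the other controls. The fitted log2 fold change was -1.08 ± 0.21 (SE), with a 95% interval of -1.54 to -0.61 and an adjusted p of 0.0145. The call was lost without control 2 (adjusted p = 0.0529) and without induced library 1 (0.0577), at log2 fold changes of -1.08 and -1.00.

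Sox1 (ENSMUSG00000096014, chr8:12395295-12400126, plus strand, 1 exon) is an early marker of the neural lineage, and its exon holds the annotated microRNA Gm25239 on the same strand (86 bases). It had 18.4, 18.4, 32.5 and 35.4 CPM in induced libraries 1 to 4, compared with 46.4, 42.0, 37.5 and 52.2 CPM in control libraries 1 to 4. The groups did not overlap, but induced libraries 3 and 4 lay close under the lowest control and libraries 1 and 2 far below it. In log2 units the change was -0.82 ± 0.21 (interval -1.29 to -0.35), with an adjusted p of 0.0455. The call was lost without control 2, 3 or 4 (adjusted p = 0.109, 0.0528 and 0.0949) and without induced library 1 or 2 (0.141 and 0.133), while the log2 fold change stayed between -0.99 and -0.67 over all 8 leave-outs.

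Sox2 (ENSMUSG00000074637, chr3:34650405-34652461, plus strand, 1 exon) also holds pluripotent stem cells in their state. It had 263.9, 261.8, 263.5 and 232.0 CPM in induced libraries 1 to 4, compared with 289.1, 254.0, 238.8 and 246.4 CPM in control libraries 1 to 4. The groups overlapped, and 3 of the 4 induced libraries lay within a narrow range. The log2 fold change was -0.01 ± 0.08, with an interval of -0.18 to 0.17 and an adjusted p of 0.965, and the fold changes estimated for Sox1 and Sox3 lie outside this interval. The pluripotency markers given above were present in both groups, and their part in the level of Sox2 was not tested.

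Sox21 (ENSMUSG00000061517, chr14:118233232-118237030, minus strand, 1 exon), which counters the SoxB1 proteins, had 14.7, 16.9, 28.9 and 31.6 CPM in induced libraries 1 to 4, compared with 42.4, 36.8, 29.2 and 41.3 CPM in control libraries 1 to 4. Induced libraries 1 and 2 were far below every control, induced library 3 lay just under the lowest control, and induced library 4 lay above it. The fitted log2 fold change was -0.76 ± 0.23 (interval -1.28 to -0.25), and the adjusted p of 0.0774 missed the threshold. The gene was called lower with library weights (adjusted p = 0.0163), with the trend on transcript length and GC content removed (0.0287), and without induced library 4 (0.0393). Its exons share 713 bases with Gm4675 on the other strand, which was called lower itself at 1.70 ± 0.275 CPM in induced cultures and 3.5 ± 0.484 CPM in controls (adjusted p = 0.0144, and 0.0579 without induced library 1). Whether reads were counted by strand is not given in the sources used here, so reads of the pair cannot be told apart.

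**Figure D2:**
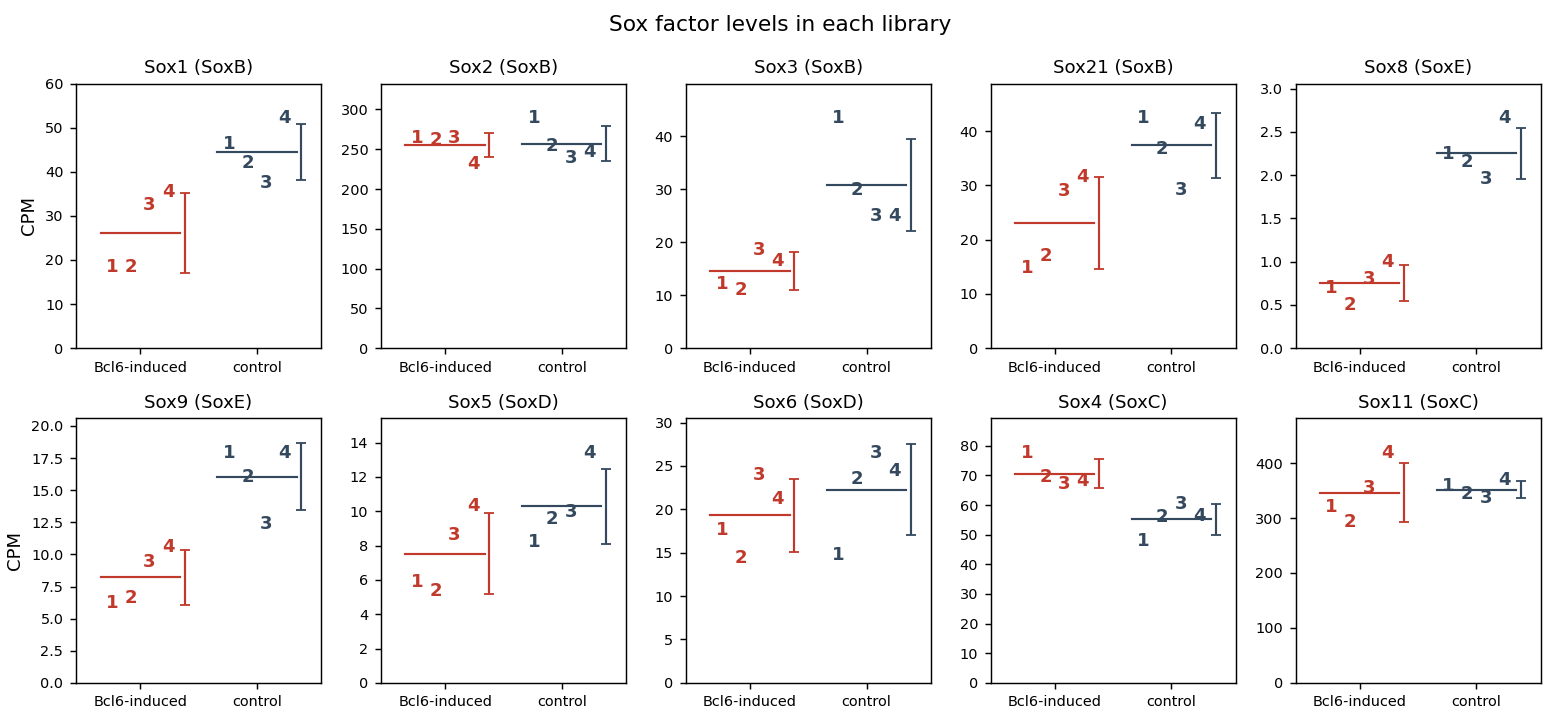
CPM of each Sox gene in each library (numerals 1 to 4 are the differentiation numbers), Bcl6-induced libraries left of controls, with the group mean as a line and the SD as a bar (n = 4). Sox3, Sox1, Sox8 and Sox9 lie below the controls in every induced library, Sox4 lies above them, and the groups overlap for the other 5 genes.

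Both SoxE genes were lower in induced cultures, and Sox8 had the largest fold change of the 10 genes. Sox9 (ENSMUSG00000000567, chr11:112782224-112787760, plus strand, 3 exons) is needed for neural stem cells and for the start of gliogenesis. It had 6.21, 6.61, 9.42 and 10.6 CPM in induced libraries 1 to 4, compared with 17.9, 16, 12.4 and 17.9 CPM in control libraries 1 to 4. Every induced library was below the lowest control, and induced libraries 1 and 2 were again the lowest. In log2 units the change was -0.99 ± 0.19 (interval -1.41 to -0.57), with an adjusted p of 0.0143. The call was lost without control 2 (adjusted p = 0.0529), induced library 1 (0.0512) or induced library 2 (0.0526), at log2 fold changes of -0.98, -0.87 and -0.90.

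Sox8 (ENSMUSG00000024176, chr17:25565892-25570686, minus strand, 3 exons), a close relative of Sox9 that is expressed in glia and in the testis, was the lowest of the 10 genes. It had 0.701, 0.501, 0.802 and 1.00 CPM in induced libraries 1 to 4, compared with 2.25, 2.15, 1.96 and 2.66 CPM in control libraries 1 to 4. The groups were far apart, and these levels rest on 10, 5, 9 and 10 reads in the induced libraries against 21, 20, 19 and 25 reads in the controls. The log2 fold change was -1.55 ± 0.26 (interval -2.13 to -0.98), with an adjusted p of 0.00808. It was called lower in all 8 leave-outs, with adjusted p from 0.0101 to 0.0334, and was the only one of the 4 lower genes of which this holds. Its exons share 329 bases with 2810468N07Rik on the other strand, which was at 1.74 ± 0.431 CPM in induced cultures and 2.57 ± 0.477 CPM in controls (adjusted p = 0.18), and counting by strand is not given in the sources used here.

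The SoxD genes did not pass the test. Sox5 (ENSMUSG00000041540, chr6:143828425-144781977, minus strand), known for its part in deep-layer projection neurons, had 5.86, 5.36, 8.62 and 10.3 CPM in induced libraries 1 to 4, compared with 8.22, 9.52, 9.98 and 13.4 CPM in control libraries 1 to 4. The groups overlapped, with induced libraries 1 and 2 below every control. The fitted log2 fold change was -0.48 ± 0.22 (interval -0.97 to 0.02, adjusted p = 0.223), and with library weights Sox5 was called lower (adjusted p = 0.032). Its exons share 1330 bases with Sox5os1 on the other strand, a gene not in the table. Sox6 (ENSMUSG00000051910, chr7:115470872-116038796, minus strand), which acts in cortical progenitors and interneurons, had 17.6, 14.4, 24.0 and 21.2 CPM in induced libraries 1 to 4, compared with 14.7, 23.5, 26.5 and 24.4 CPM in control libraries 1 to 4. The groups overlapped, with control 1 close to the lowest induced library and induced library 3 above control 2. In log2 units the change was -0.20 ± 0.20 (interval -0.64 to 0.24, adjusted p = 0.59).

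Of the SoxC genes, Sox4 was higher in induced cultures and Sox11 was not called. Sox4 (ENSMUSG00000076431, chr13:28948919-28953713, minus strand, 1 exon) acts in the differentiation of newborn neurons. It had 77.6, 69.5, 67.0 and 68.2 CPM in induced libraries 1 to 4, compared with 47.8, 56.0, 60.5 and 56.4 CPM in control libraries 1 to 4. Every induced library was above every control, and unlike in the lower genes, induced libraries 1 and 2 were the highest of their group. The log2 fold change was 0.36 ± 0.09 (interval 0.16 to 0.55), with an adjusted p of 0.0373. The call ended under median-of-ratios (adjusted p = 0.0581), upper quartile (0.0568) and TMM scaling (0.0554), at log2 fold changes of 0.32, 0.31 and 0.33. It also ended without control 2 (adjusted p = 0.0931) or 4 (0.0609) and without each induced library, from induced library 1 to 4, at 0.14, 0.102, 0.0652 and 0.0625. Its exons share 2616 bases with Gm26735 on the other strand, a gene not in the table.

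Sox11 (ENSMUSG00000063632, chr12:27334264-27342574, minus strand, 1 exon), which works beside Sox4 in young neurons, had 320.1, 293.0, 354.2 and 418.6 CPM in induced libraries 1 to 4, compared with 358.2, 343.7, 336.3 and 369.3 CPM in control libraries 1 to 4. The induced libraries lay on both sides of the controls and spread more widely, with an SD of 54.2 CPM in induced cultures against 14.7 CPM in controls. The fitted log2 fold change was -0.03 ± 0.10 (interval -0.26 to 0.19, adjusted p = 0.873). Neuron markers that were called higher, such as Tubb3 and Dcx, are described with the gene lists, and their part in the level of either SoxC gene was not tested.

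Per kilobase of the longest annotated transcript, Sox2 was the most abundant of the 10 genes in both groups, at 124.1 ± 7.55 CPM per kb in induced cultures and 125.0 ± 10.8 CPM per kb in controls. Sox11 followed at 41.7 ± 6.52 CPM per kb in induced cultures and 42.3 ± 1.77 CPM per kb in controls. Both stood clear of the gene below them in every library. In induced cultures the order went on with Sox4 (14.7 ± 0.995), Sox3 (7.03 ± 1.77), Sox21 (6.06 ± 2.23), Sox1 (5.42 ± 1.88), Sox6 (2.23 ± 0.479), Sox9 (1.98 ± 0.515), Sox5 (1.04 ± 0.321) and Sox8 (0.251 ± 0.0696 CPM per kb). In controls it went on with Sox3 (14.9 ± 4.24), Sox4 (11.5 ± 1.11), Sox21 (9.85 ± 1.58), Sox1 (9.21 ± 1.30), Sox9 (3.89 ± 0.627), Sox6 (2.57 ± 0.602), Sox5 (1.42 ± 0.307) and Sox8 (0.752 ± 0.0982 CPM per kb). The library values of Sox3 and Sox4 did not overlap in induced cultures and did in controls. In both groups Sox21 overlapped with Sox1 and Sox6 with Sox9, and Sox8 was below Sox5 in every library.

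Sox2 made up a larger share of the SoxB1 messenger RNA in induced cultures than in controls. On the CPM per kb scale, the sum of Sox1, Sox2 and Sox3 was 136.5 ± 6.48 in induced cultures and 149.1 ± 15.4 in controls. Sox2 made up 93.0%, 93.3%, 89.1% and 88.0% of this sum in induced libraries 1 to 4, compared with 82.1%, 84.2%, 85.4% and 84.0% in control libraries 1 to 4. Every induced library lay above every control. The share of Sox3 was 5.15% ± 1.28 in induced cultures and 9.87% ± 1.72 in controls, and that of Sox1 was 3.98% ± 1.46 in induced cultures and 6.21% ± 0.92 in controls (SD, n = 4 each). The ratio of Sox4 to Sox11 per kb was 0.360 ± 0.0666 in induced cultures and 0.272 ± 0.0338 in controls, and that of Sox8 to Sox9 was 0.127 ± 0.0223 in induced cultures and 0.195 ± 0.0196 in controls. The groups overlapped for the SoxB1 sum, the share of Sox1 and the ratio of Sox4 to Sox11. They did not overlap for the share of Sox3 or the ratio of Sox8 to Sox9, where Sox8 rests on 5 to 10 reads in induced libraries. These shares and ratios follow from the levels already given and were not tested.

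**Figure D3:**
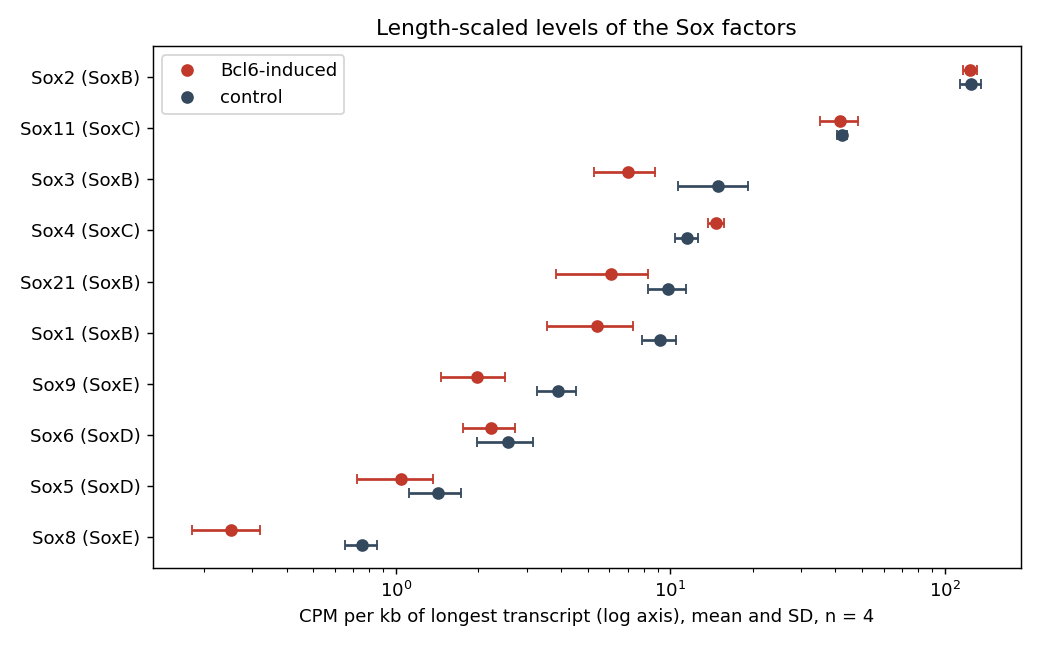
Level of each Sox gene in CPM per kilobase of its longest annotated transcript, on a log axis, as the mean and SD of 4 Bcl6-induced (upper point of each pair) and 4 control libraries. Genes are ordered by their control level, from Sox2 at 125.0 CPM per kb to Sox8 at 0.752 CPM per kb; the points of Sox2 and of Sox11 nearly coincide between groups.

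The induced cultures were not alike in these genes. Induced libraries 1 and 2 were the lowest pair of their group in 8 of the 10 genes, all but Sox2 and Sox4, and this held for 3564 genes, 23.8% of the table. On the log2 CPM scale and set against the mean of the controls, Sox1 stood at -1.27 in both of these libraries and at -0.45 and -0.33 in induced libraries 3 and 4. Sox21 stood at -1.35 and -1.15 in induced libraries 1 and 2, and at -0.37 and -0.24 in induced libraries 3 and 4. Sox9 and Sox8 were well below the control mean in all 4, at -1.37, -1.28, -0.77 and -0.60 for Sox9 and at -1.69, -2.17, -1.49 and -1.18 for Sox8. The summed radial glia markers had the same split, with 851.0 and 863.9 CPM in induced libraries 1 and 2 and 1206.1 and 1223.6 CPM in induced libraries 3 and 4. Bcl6 did not, at 392.9, 421.8, 426.8 and 324.6 CPM in induced libraries 1 to 4. The part of the radial glia markers in the split was not tested.

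**Figure D4:**
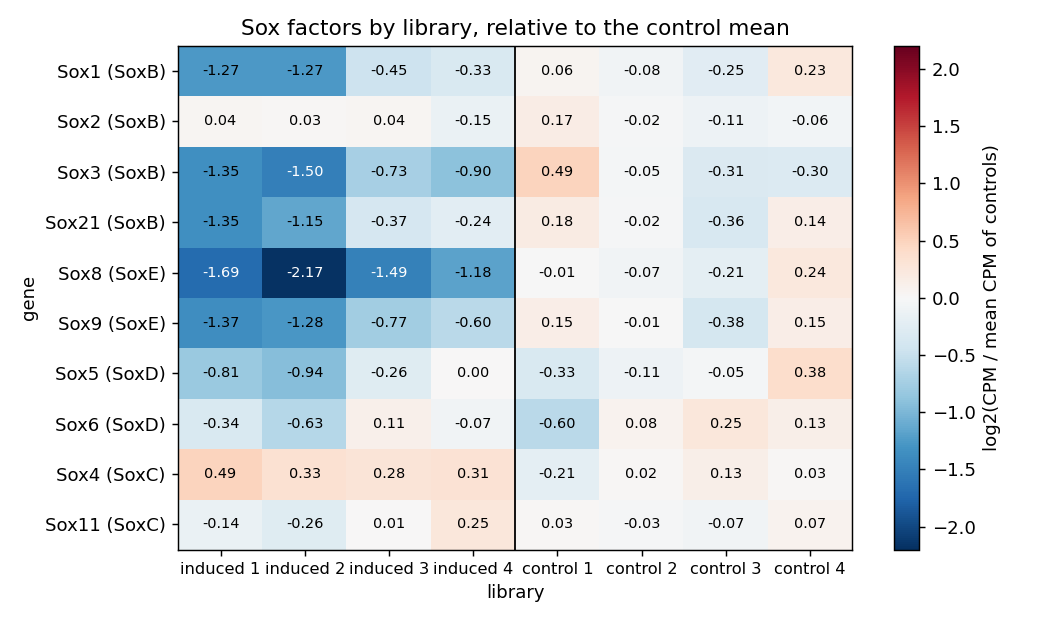
Log2 of the CPM of each Sox gene in each library over the mean CPM of the controls, with the 4 Bcl6-induced libraries left of the 4 controls. Blue cells are below and red cells above the control mean; the deepest value is -2.17 for Sox8 in induced library 2, and Sox4 is above the control mean in all 4 induced libraries, from 0.28 to 0.49.

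Of 10 further Sox genes looked up, 6 had a row and Sox10, Sox18, Sox30 and Sry had none. Sox14, a SoxB2 gene like Sox21, had 3.31, 2.66, 4.01 and 4.46 CPM in induced libraries 1 to 4, compared with 6.06, 5.91, 6.92 and 5.06 CPM in control libraries 1 to 4. It was lower in every induced library, with a log2 fold change of -0.74 ± 0.19 and an adjusted p of 0.0418. Sox15, which belongs to none of the 4 subgroups, had 13.3, 12.2, 13.1 and 12.8 CPM in induced libraries 1 to 4, compared with 9.17, 8.11, 9.28 and 10.7 CPM in control libraries 1 to 4. It was higher in every induced library, at 0.47 ± 0.12 with an adjusted p of 0.0377. Sox14 was lost without control 2 or 3 (adjusted p = 0.108 and 0.0822) and without induced libraries 1, 2 and 3 (0.129, 0.122 and 0.0636). Sox15 was lost without control 2 or 3 (0.109 and 0.0595), without each induced library (0.0711 to 0.128) and under upper quartile scaling (0.0556). Sox12, the third SoxC gene, and Sox13, the third SoxD gene, were not called, at 95.5 ± 2.13 CPM in induced cultures and 105.7 ± 12.8 CPM in controls for Sox12 and at 93.7 ± 12.6 CPM in induced cultures and 81.2 ± 6.57 CPM in controls for Sox13. With the length and GC trend removed, Sox12 was called lower. The endoderm and endothelial genes Sox7 and Sox17 were not called either (log2 fold changes of 0.43 and 0.16, adjusted p of 0.199 and 0.64).

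Sox2ot, the long noncoding RNA whose gene holds Sox2 in an intron, was looked at after its values were seen, because Sox2 was not called. It had 3.96, 4.01, 8.07 and 9.12 CPM in induced libraries 1 to 4, compared with 12.9, 13.4, 13.1 and 17.6 CPM in control libraries 1 to 4. The host transcript was lower in every induced library while the groups overlapped for Sox2. In log2 units the change was -1.27 ± 0.27 with an adjusted p of 0.0211, and the call was lost without control 2 (adjusted p = 0.0634), induced library 1 (0.0669) or induced library 2 (0.0655).

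Factors that bind beside SoxB proteins were mostly not called. Of 11 such partners, 2 were lower, none was higher and 9 were not called, with a median log2 fold change of -0.29. Over all genes, 2.26% were lower and 4.55% higher, with a median of 0.03. The number of lower partners was 5 with library weights and 5 with the trend on transcript length and GC content removed. Otx2, a head and forebrain homeobox factor, was at 160.8 ± 5.10 CPM in induced cultures and 218.5 ± 14.8 CPM in controls (adjusted p = 0.00545). Zic1, a zinc finger factor of the early neural plate, was at 76.7 ± 4.78 CPM in induced cultures and 93.9 ± 6.74 CPM in controls (adjusted p = 0.0492). Otx2 was called lower in all 8 leave-outs and Zic1 in 2 of them. It missed the threshold without control 2 or 3 (adjusted p = 0.13 and 0.0891) and without induced libraries 1 to 4 (0.153, 0.162, 0.0654 and 0.0873).

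Genes reported downstream of SoxB proteins in progenitors included 3 lower, none higher and 8 not called of 11 measured, with a median of -0.29, and Rax had no row. Over all genes, 2.26% were lower and 4.55% higher, with a median of 0.03. With library weights, and with the length and GC trend removed, 1 gene of this list was called higher. Nes, the intermediate filament nestin with a Sox2-bound neural enhancer, was at 189.3 ± 42.8 CPM in induced cultures and 281.9 ± 19.3 CPM in controls (adjusted p = 0.0284). Fabp7, the brain lipid-binding protein of radial glia, had 9.47, 14, 76.6 and 87.4 CPM in induced libraries 1 to 4, compared with 213.8, 184.5, 145.7 and 174.3 CPM in control libraries 1 to 4 (adjusted p = 0.0356). Hes5, a Notch effector that holds progenitors, had 0.200, 0.301, 6.06 and 6.12 CPM in induced libraries 1 to 4, compared with 23.0, 17.6, 13.8 and 14.9 CPM in control libraries 1 to 4 (adjusted p = 0.0441). In all 3 genes every induced library was below every control and induced libraries 1 and 2 were the lowest, as in Sox1 and Sox9. All 3 are also radial glia markers. None was called without control 2 or 4 or without induced library 1 or 2, where adjusted p ran from 0.0625 for Nes without control 4 to 0.129 for Hes5 without induced library 2. Hes5 also missed the threshold without control 1 (0.0528) and control 3 (0.0705), and Fabp7 without control 3 (0.0565).

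Genes reported downstream of SoxE proteins in glia and cartilage included 2 lower, 1 higher and 8 not called of 11 measured, with a median of -0.21, and S100b and Sox10 had no row. Over all genes, 2.26% were lower and 4.55% higher, with a median of 0.03. The number lower in this list was 4 with library weights and 5 with the length and GC trend removed. Slc1a3, the glutamate transporter of radial glia and astrocytes, was at 86.6 ± 2.28 CPM in induced cultures and 141.3 ± 15.6 CPM in controls (adjusted p = 0.00179). Fgfr3, an FGF receptor of progenitors and astrocytes, was at 16.4 ± 2.33 CPM in induced cultures and 24.7 ± 1.69 CPM in controls (adjusted p = 0.0144). Mbp, the myelin basic protein gene, went the other way, at 55.9 ± 2.65 CPM in induced cultures and 37.9 ± 3.55 CPM in controls (adjusted p = 0.00441). The gliogenic factor Nfia was at 6.75 ± 2.22 CPM in induced cultures and 10.7 ± 3.08 CPM in controls and was not called (adjusted p = 0.152). Nfia was chosen after its value was seen. Slc1a3 and Mbp were called in all 8 leave-outs, and Fgfr3 was lost without control 2 (adjusted p = 0.0534), induced library 1 (0.0596) or induced library 2 (0.0538). Slc1a3 is also counted among the radial glia markers above, and Mbp among the astrocyte and oligodendrocyte markers.

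Genes reported downstream of SoxC proteins in neurons included 5 higher, none lower and 7 not called of 12, with a median of 0.46. Over all genes, 4.55% were higher and 2.26% lower, with a median of 0.03. Tubb3, the neuronal tubulin with SoxC-responsive control regions, had 291.1, 299.0, 334.6 and 383.5 CPM in induced libraries 1 to 4, compared with 188.9, 172.6, 127.9 and 189.2 CPM in control libraries 1 to 4. Every induced library exceeded every control, at an adjusted p of 0.00311. Dcx, the doublecortin of migrating neurons, was at 283.6 ± 36.3 CPM in induced cultures and 138.4 ± 31.6 CPM in controls (adjusted p = 0.00417). Dpysl3, a growth cone protein, was at 370.1 ± 10.9 CPM in induced cultures and 255.8 ± 25.6 CPM in controls (adjusted p = 0.00404), and Neurod1, a neurogenic factor, was at 12.1 ± 1.70 CPM in induced cultures and 6.90 ± 0.803 CPM in controls (adjusted p = 0.0102). The list had 5 higher calls in each of the 8 leave-outs. The fifth called gene, Map2, a dendritic protein, was at 263.2 ± 35.8 CPM in induced cultures and 173.4 ± 21.8 CPM in controls (adjusted p = 0.0127) and was named after its value was seen. Tubb3, Dcx and Map2 are also neuron markers.

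**Figure D5:**
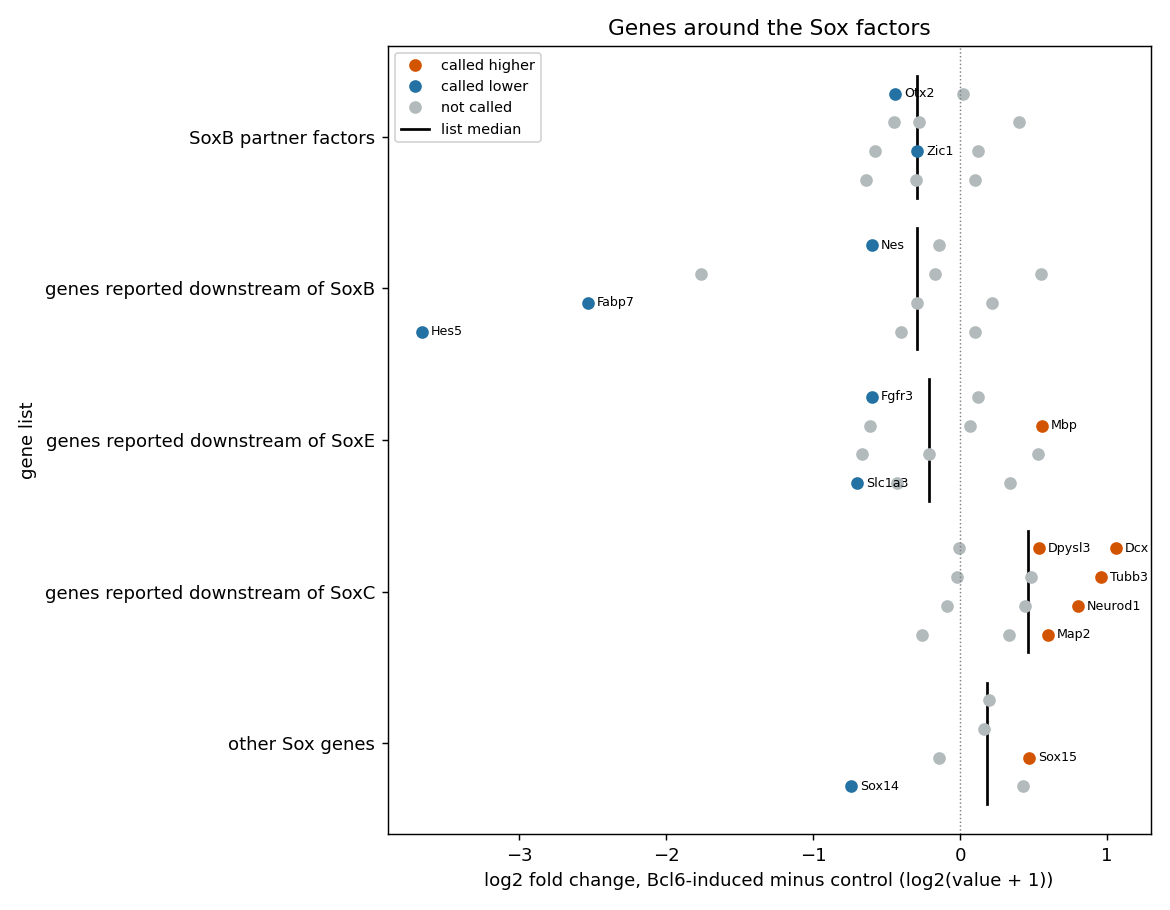
Log2 fold change, Bcl6-induced minus control on the log2(value + 1) scale, of the measured genes of 5 lists, with called genes coloured and named and the list median as a bar. Vertical position within a list carries no value; the median is -0.29 for SoxB partners and for genes downstream of SoxB, -0.21 downstream of SoxE, 0.46 downstream of SoxC and 0.18 for other Sox genes.

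Promoter windows of 300 bases, from 250 before to 50 after an annotated start, were taken from RefSeq (GRCm38.p6). They were found for 8 of the 10 genes, 13 windows in all with 6 for Sox6. Sox3 and Sox9, which were called lower, had no window, so the motif counts below leave them out. The windows of Sox1 and Sox8, which were lower, and of Sox4, which was higher, are shown. Capitals mark the core TGGGAA of Rbpj, the DNA-binding partner of Notch, on either strand.
Sox1 promoter (chr8:12395269-12395568, plus strand): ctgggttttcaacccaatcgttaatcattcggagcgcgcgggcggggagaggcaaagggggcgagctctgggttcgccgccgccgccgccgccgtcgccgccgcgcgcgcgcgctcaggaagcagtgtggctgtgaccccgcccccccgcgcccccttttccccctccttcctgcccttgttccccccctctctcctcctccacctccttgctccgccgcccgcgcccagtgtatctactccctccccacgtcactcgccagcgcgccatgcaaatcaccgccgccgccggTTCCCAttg
Sox8 promoter (chr17:25570637-25570936, minus strand): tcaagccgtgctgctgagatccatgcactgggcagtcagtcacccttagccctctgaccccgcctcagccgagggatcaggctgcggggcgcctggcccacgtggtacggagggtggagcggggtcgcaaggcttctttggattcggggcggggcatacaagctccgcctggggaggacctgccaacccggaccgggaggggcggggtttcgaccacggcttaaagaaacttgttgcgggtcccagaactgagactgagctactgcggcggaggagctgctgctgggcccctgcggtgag
Sox4 promoter (chr13:28953650-28953949, minus strand): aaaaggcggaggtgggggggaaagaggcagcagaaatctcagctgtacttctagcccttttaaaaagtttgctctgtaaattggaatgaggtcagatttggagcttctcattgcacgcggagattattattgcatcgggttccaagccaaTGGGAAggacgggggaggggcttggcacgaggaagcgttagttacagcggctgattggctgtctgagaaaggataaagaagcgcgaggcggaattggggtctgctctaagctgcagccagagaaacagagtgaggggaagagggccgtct
The Sox1 window holds 1 match to the Rbpj core, on the strand opposite to the gene, the Sox4 window holds 1, and the Sox8 window none. TGGGAA was found in 2 of the 13 windows and in 25.6% of 32851 mouse windows of the same length. A core of the Bcl6 motif, TTCCTAGAA, was found on neither strand in any of the 13, and it occurs in 0.411% of all windows. A core bound by Sox proteins, ACAATG or ACAAAG, was found in 7 of the 13, in the windows of Sox2 and Sox5 and in 5 of 6 of Sox6, against 28.6% of all windows. The windows of Sox6 belong to the same gene, and by gene the core was found in 3 of 8. The Sox5 window and most Sox6 windows lie at annotated starts inside their genes, away from the outermost start. None of these motifs contains another. A match is a stretch of letters and was not tested for binding.

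The genes whose levels followed a Sox gene most closely were looked up for Sox2, Sox9 and Sox11 by Pearson's r of log2(value + 1) over the 8 libraries, among 11871 genes with a mean of at least 5 CPM. For Sox9 they were Erbb2 (r = 0.996), Wnt7b (0.99) and Rrm1 (0.99), and all 3 were called lower, with adjusted p of 0.0494, 0.0217 and 0.0494. Wnt7b was lost without control 2 (0.0684), induced library 1 (0.0771) or induced library 2 (0.0655). Erbb2 and Rrm1 were called in 3 of 8 leave-outs each and were lost without control 2 (0.125 and 0.128), control 4 (0.0979 and 0.0983) and induced libraries 1 (0.172 and 0.173), 2 (0.156 and 0.16) and 3 (0.0836 and 0.0702). Wnt7b, a Wnt ligand, had 12.9, 11.5, 17.6 and 20.9 CPM in induced libraries 1 to 4, compared with 31.5, 27.6, 22.5 and 31.2 CPM in control libraries 1 to 4. Like Sox9 it was lowest in induced libraries 1 and 2 and, among controls, in control 3. For Sox2 they were Ing2 (r = 0.988), Hspa2 (0.985) and Btbd2 (0.976), and for Sox11 Hp1bp3 (0.984), Gjc1 (0.969) and Dpysl4 (0.947), none of them called. The 8 points of each r share 2 groups and the depth of their libraries, and the genes were the highest of all those searched. Sox9 differed between the groups, so genes chosen by r with Sox9 share its direction and library order through that choice. The r, the calls and the library order of these genes are given only as descriptions.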

How the data were processed

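Poly(A) RNA libraries of 8 cultures, 4 Bcl6-induced and 4 control, were prepared, per the labels' protocols, with the stranded TruSeq kit. The submitters' processing notes name STAR 2.5.3a, HTSeq 0.9.1, edgeR 3.20.1 and the build mm10, with no role or order. The authors deposited 1 table of 14954 genes whose decimal commas had become column breaks, with 36 cells a line under 24 header names. It was rejoined line by line, and the authors' own statistics and the deposited CPM columns were not used. Each value deposited by the authors is treated as a score, since it is no raw count: it is the gene's reads scaled to a library total of 19.93 M to 19.96 M and rounded up. In each library at least 99.61% of values sat on multiples of a step between 1.33 and 2.12, against at most 72.9% with the step shifted by 3%, and a value counted only if rounding up gave it exactly. Each value over its library's step, rounded down, was taken as the gene's reads, and read totals are the sums of these.

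CPM here is the value over its library's total, and per kb it is divided by the longest GENCODE M21 transcript. Groups were compared with limma 3.58.1 (R 4.3.3), fitted to log2(value + 1) with a variance trend, no covariate, no filter on low values (the lowest mean was 15.1) and Benjamini-Hochberg adjustment over all genes, with a call at an adjusted p under 0.05. Fold changes on this scale understate those of low genes. The test was tried on simulated data. Alternatives were other pseudocounts, scalings and a filter, library weights, a replicate block, removal of the trend on transcript length and GC content (known for 99.8% of genes), and leaving out each library.

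The members and lists were chosen with earlier results of these data known. Genes named were Bcl6, the 10 members, the other Sox genes, up to 4 called genes of smallest adjusted p in each list, members of the lists with no row, and the 3 genes most like Sox2, Sox9 and Sox11. The marker lists are given mainly by their counts and sums. A gene of 1 fixed list is not reported here. Nfia, Map2, Sox2ot and the genes overlapping a member were chosen after their values were seen. HMG box coding sequences are from GENCODE M21 and promoters from RefSeq.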

Additional observations from a re-analysis of the deposited data

Results flagged for a closer look

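The highest and lowest library of each group of 4 were examined for the 10 Sox genes, 6 further Sox genes, Sox2ot and Bcl6, 36 groups in all, and 3 stood apart by Dixon's test. Chance flags about 1 in 20 groups. Sox2 in induced library 4 was 232.0 CPM, below 261.8 to 263.9 CPM in the other 3 induced libraries. Sox7 in induced library 3 was 2.51 CPM, below 3.11 to 3.21 CPM in the others of its group. Sox2ot in control 4 was 17.6 CPM, above 12.9 to 13.4 CPM in the other controls.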

How the results depend on the processing

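Of the 1019 genes called, 681 (66.8%) were higher, against 55.8% (536 higher, 424 lower) under median-of-ratios, 51.4% (501 and 474) under upper quartile and 57.5% (554 and 410) under TMM scaling, and 51.0% (900 and 864) with the length and GC trend removed. All genes called numbered 2507 with library weights, 1764 with that trend removed and 308 to 1697 over the leave-outs. Sox genes called lower ranged from 1 to 5 over the leave-outs, and Sox genes called higher from 0 to 1. The count of higher Sox genes was 0 under median-of-ratios, upper quartile and TMM scaling and under the replicate block. Sox2 turned to 0.05 (log2) with library weights, 0.05 without control 1 and 0.04 without induced library 4, and Sox11 to 0.04 without induced library 2; over all leave-outs Sox2 ran from -0.04 to 0.05 and Sox11 from -0.13 to 0.04. The cause was not tested.

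The labels do not say whether same-numbered libraries shared a differentiation. Deviations of same-numbered libraries from their group means correlated at 0.053, 0.022, -0.041 and 0.263. Those of other pairs correlated at -0.288 to 0.251, the highest being induced library 2 with control 1. With 4 libraries a group, these values cannot decide whether the numbers pair the libraries. With the replicate block, 827 genes were called (531 higher, 296 lower), Sox4 had a log2 fold change of 0.36 and an adjusted p of 0.0762, Sox14 and Sox15 were no longer called (adjusted p = 0.0614 and 0.0627), and the 4 lower Sox genes were called as before. The block left 1 lower SoxB partner. Library weights gave 6 higher pluripotency markers, 2 higher mesoderm and endoderm markers and 2 lower cortical primordium markers, and 1 feeder marker was called lower under 6 of the 9 other settings that keep all libraries. The planned edgeR test on whole reads was not run, since the deposited values are scaled and rounded up. With a minimum mean of 100 scaled reads, Sox8, Sox7 and Sox14 were filtered out. Sox8 rests on 5 to 10 reads in induced libraries against 19 to 25 reads in controls.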
